A study of Mus musculus with 16 samples.

Results

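The SOCS family and Bcl6 were examined in skeletal muscle of 16 mice. The 9 genes were Cish, Socs1 to Socs7, and Bcl6, taken by name from the mRNA table, and all 9 of them, out of 23235 gene names, were found. They were chosen by their differences in counts between the groups of these mice, so those differences are given as a description without P-values. Libraries came from total RNA, 1 library for each mouse, and 4 mice were sequenced in each of 4 groups. All mice were male C57BL/6J mice bought at 6 weeks of age. The control group (CON) ate a normal diet and the HFD group a high-fat diet, for which 8 weeks is given. The HFD + RSV and HFD + MET groups were given resveratrol or metformin for 6 weeks after 8 weeks of the high-fat diet. Resveratrol is a plant polyphenol and metformin is a drug that lowers blood glucose. The 9 genes passed the filter on low counts with the other tested genes, 15364 genes in total.

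SOCS proteins and CIS, the product of Cish, carry an SH2 domain that binds phosphotyrosine and a SOCS box that recruits a ubiquitin ligase. Cytokine and growth hormone receptors activate Janus kinases, which phosphorylate STAT proteins, and the STAT proteins induce Cish and several Socs genes, whose products then lower signalling from the same receptors. SOCS1 and SOCS3 are also known to bind the insulin receptor and its substrate IRS1, and Bcl6 encodes a transcriptional repressor that growth hormone acting through STAT5 is known to lower in liver.

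The mRNA counts of a mouse summed to between 17625909 and 29761026 (median 22724161), and values are given as CPM, counts scaled to the same library total after TMM normalization. The extraction text in the labels names retina, but the tissue label is skeletal muscle, and 10 muscle markers summed to between 171300 and 325200 CPM while 5 retina markers summed to at most 1.49 CPM. Control mouse 3 and HFD + MET mouse 3 stood apart. Their 8 adipocyte markers summed to 5124 and 4471 CPM, against 208.1 to 1758 CPM in the other 14 mice, and their muscle markers had the lowest sums of the 16 mice. The adipocyte sum was 1082 to 5124 CPM in control mice, 208.1 to 1035 CPM in HFD mice, 301.4 to 1218 CPM in the HFD + RSV group and 211.1 to 4471 CPM in the HFD + MET group, so all HFD mice lay below all control mice. The same held for 3 other lists of cell types, and also for the retina markers near 0 (0.416 to 0.575 CPM in HFD mice and 0.728 to 1.49 CPM in control mice). The 6 Schwann cell markers summed to 31.6 to 42.2 CPM in HFD mice and 47.1 to 153 CPM in control mice, with 29.5 to 309.9 CPM in HFD + RSV mice and 28.0 to 64.2 CPM in HFD + MET mice, and their median log2 fold change was -1.35 in HFD against control and 1.40 in HFD + RSV against HFD. The 7 endothelial markers summed to 338.8 to 377.4 CPM in HFD mice and 395.5 to 477.7 CPM in control mice, with 322 to 441.3 and 352.6 to 518.8 CPM in the HFD + RSV and HFD + MET mice. The 7 lymphocyte markers were near 0, with 0.276 to 0.486 CPM in HFD mice, 0.643 to 1.69 CPM in control mice and at most 1.26 CPM in the treated mice. The 5 erythroid markers summed to 361.5 to 476.7 CPM in HFD mice, below all treated mice (499.6 to 1393 CPM) and within the range of the control mice, and the 7 macrophage markers overlapped between all groups (110.1 to 356.1 CPM). No marker was at 0 in all mice. The part of these cell types in the differences below was not tested. The title numbers of the HFD mice begin with a number that no other group carries. In comparisons with the HFD mice, neither the diet nor a treatment can be told apart from any cage or batch behind that number. The study injected some mice with insulin before tissue collection, and whether the sequenced mice were among them is not given in the sources used here.

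STAT5 dimers bind the palindrome TTCNNNGAA, so the promoters of the 9 genes were searched for it, to show which of them hold the letters of such a site. RefSeq promoters (250 bases before and 50 after the start, GRCm38.p6) were at hand for Cish, Socs1, Socs3, Socs4, and Bcl6, with a pair of promoters for Bcl6, and Socs2, Socs5, Socs6, and Socs7 had no entry. The promoters of Cish, Socs3, and Bcl6 held the palindrome and those of Socs1 and Socs4 did not. The sequences that hold it follow, 5′ to 3′ on the strand of the gene, with the palindrome in capitals, as the 250 bases before the start for Socs3 and Bcl6 and as 30 bases around the sites for Cish.
Cish, chr9:107296654-107296683, plus strand: cagttTTCCTGGAAagTTCTTGGAAatctg
Socs3, chr11:117969367-117969616, minus strand: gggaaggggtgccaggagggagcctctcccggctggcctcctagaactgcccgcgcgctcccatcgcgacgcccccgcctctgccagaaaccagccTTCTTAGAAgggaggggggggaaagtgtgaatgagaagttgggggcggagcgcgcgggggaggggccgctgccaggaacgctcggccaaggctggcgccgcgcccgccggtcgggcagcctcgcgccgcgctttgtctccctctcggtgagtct
Bcl6, first start, chr16:23988853-23989102, minus strand: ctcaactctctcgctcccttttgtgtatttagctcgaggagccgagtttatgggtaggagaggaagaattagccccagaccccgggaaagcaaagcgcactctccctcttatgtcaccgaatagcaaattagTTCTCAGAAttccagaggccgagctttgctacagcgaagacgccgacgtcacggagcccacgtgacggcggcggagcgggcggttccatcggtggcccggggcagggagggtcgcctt
Bcl6, second start, chr16:23981284-23981533, minus strand: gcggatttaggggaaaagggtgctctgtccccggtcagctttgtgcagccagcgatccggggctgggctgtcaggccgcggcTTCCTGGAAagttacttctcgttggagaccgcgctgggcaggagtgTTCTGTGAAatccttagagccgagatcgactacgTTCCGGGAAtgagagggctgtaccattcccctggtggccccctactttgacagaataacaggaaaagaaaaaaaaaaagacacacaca

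The Cish window held 2 copies, TTCCTGGAA and TTCTTGGAA, whose first bases are 1 and 12 counted from the start site. The second Bcl6 start held 3 copies, at 168, 122, and 88 bases before the start, and the first held 1 copy at 118 bases before it. The Socs3 window held 1 copy at 154 bases before the start. Of all 32851 mouse promoters, 8.3% held at least 1 copy, 0.457% at least 2, and 0.0335% at least 3. The stricter form TTCCNGGAA, which is part of the first form, was present in the promoter of Cish and at the second start of Bcl6 and in 1.15% of all promoters, and TTCCTAGAA was present in none of these 6 windows and in 0.411% of all promoters. Both strands were searched. A match of letters does not show that a protein binds there. The whole Cish window lies in exon 1 of the coding transcript ENSMUST00000085102, which starts upstream of the RefSeq start, and the second Bcl6 window lies in an intron of the transcript ENSMUST00000023151.

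Cish (ENSMUSG00000032578, chr9:107296026-107302784, GRCm38) is the classical target gene of STAT5 and encodes the family's first known member. It measured 52.4, 54.6, 67.4, and 97.98 CPM in the 4 HFD mice and 10.6, 16.4, 20.7, and 6.97 CPM in the control mice. In the HFD + RSV group it measured 9.03, 16.4, 14.4, and 7.02 CPM, and in the HFD + MET group 17.1, 8.99, 61.1, and 6.58 CPM. Every HFD mouse lay above every control and every HFD + RSV mouse, whereas 1 of the HFD + MET mice, mouse 3, lay among the HFD mice. The fitted log2 fold change (log2FC) was 2.31 ± 0.60 (SE) for the HFD group against the control group. It was -2.54 ± 0.61 for HFD + RSV against HFD and -1.54 ± 0.58 for HFD + MET against HFD, and the last value was -2.66 without HFD + MET mouse 3. In bulk muscle, a change in the number of cells that express a gene and a change in its RNA per cell cannot be told apart.

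Socs1 (ENSMUSG00000038037, chr16:10783808-10785536) encodes a member that binds and inhibits Janus kinases. It was counted 12, 22, 11, and 7 times in the control mice and 30, 35, 76, and 143 times in the HFD mice, which gave 0.674, 0.708, 0.43, and 0.364 CPM and 1.298, 1.46, 3.36, and 6.57 CPM. The HFD + RSV mice measured 0.537, 0.867, 0.577, and 0.447 CPM, and the HFD + MET mice 1.10, 0.262, 0.803, and 0.79 CPM. All HFD mice were above all other mice, but the counts outside the HFD group were only 7 to 22, so levels there are imprecise. The log2FC was 2.52 ± 0.52 for HFD against control, -2.37 ± 0.51 for HFD + RSV against HFD and -2.11 ± 0.50 for HFD + MET against HFD. HFD mouse 4 held the highest count, and without it the 3 differences were 1.89, -1.74, and -1.47.

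Socs3 (ENSMUSG00000053113, chr11:117966079-117969186) encodes the inhibitor best known for receptors that share gp130 and for the leptin receptor. It measured 3.88, 3.51, 3.32, and 3.95 CPM in the control mice, 7.05, 4.66, 9.11, and 18.8 CPM in the HFD mice, 4.83, 2.69, 3.68, and 2.95 CPM in the HFD + RSV mice and 4.34, 1.57, 4.65, and 4.10 CPM in the HFD + MET mice. The HFD mice did not overlap with the control mice, and HFD mouse 2 was slightly below the highest HFD + RSV mouse. The log2FC was 1.43 ± 0.39 for HFD against control, -1.48 ± 0.39 for HFD + RSV against HFD and -1.44 ± 0.38 for HFD + MET against HFD. HFD mouse 4 carried the highest values of Cish, Socs1, Socs2, and Socs3 among the 16 mice, and without it the 3 Socs3 differences were 0.92, -0.97, and -0.92.

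Socs2 (ENSMUSG00000020027, chr10:95385362-95417180) encodes a brake on growth hormone receptor signalling and is, like Cish, a STAT5 target. It measured 9.32, 16.8, 12.7, and 8.27 CPM in the control mice and 9.78, 17.4, 14.9, and 24.3 CPM in the HFD mice. The HFD + RSV mice measured 8.23, 10.6, 10.3, and 8.81 CPM and the HFD + MET mice 6.38, 9.36, 9.17, and 17.1 CPM. The groups overlapped in each of these comparisons. The log2FC was 0.49 ± 0.31 for HFD against control, -0.80 ± 0.31 for HFD + RSV against HFD and -0.65 ± 0.31 for HFD + MET against HFD.

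Bcl6 (ENSMUSG00000022508, chr16:23965052-23988852) measured 48.2, 36.1, 53.2, and 84.3 CPM in the control mice and 112, 122, 103, and 87.0 CPM in the HFD mice, without overlap. It measured 78.0, 71.5, 119, and 95.3 CPM in the HFD + RSV mice and 111, 112, 46.3, and 80.4 CPM in the HFD + MET mice, and both treated groups overlapped with the HFD group and with the control group. Its log2FC was 0.94 ± 0.28 for HFD against control, -0.22 ± 0.28 for HFD + RSV against HFD and -0.28 ± 0.28 for HFD + MET against HFD. Against the control group it was 0.72 ± 0.28 with resveratrol and 0.66 ± 0.28 with metformin, while the corresponding values of Cish were -0.23 ± 0.58 and 0.77 ± 0.58.

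Socs4 (chr14:47276931-47296102), Socs5 (chr17:87107679-87137583), Socs6 (chr18:88665224-88927481), and Socs7 (chr11:97362551-97398542) form the branch of the family with long N-terminal regions. Socs4 and Socs5 are linked to the epidermal growth factor receptor, and Socs6 and Socs7 to insulin signalling. Socs4 ranged over the 16 mice from 17.3 to 35.2 CPM, Socs5 from 19.7 to 30.2 CPM and Socs6 from 15.97 to 33.0 CPM, and all groups overlapped. Their log2FC for HFD against control was 0.08 ± 0.19, 0.12 ± 0.11, and 0.25 ± 0.19, with 95% intervals from -0.30 to 0.46, from -0.08 to 0.33 and from -0.12 to 0.62. Socs7 measured 114, 89.4, 76.8, and 93.4 CPM in the control mice and 125, 138, 129, and 110 CPM in the HFD mice, with the control mouse 1 inside the HFD range and a log2FC of 0.43 ± 0.13. Against the HFD group, the 4 genes had log2FC from -0.20 to -0.08 with resveratrol and from -0.19 to 0.06 with metformin.

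**Figure D1:**
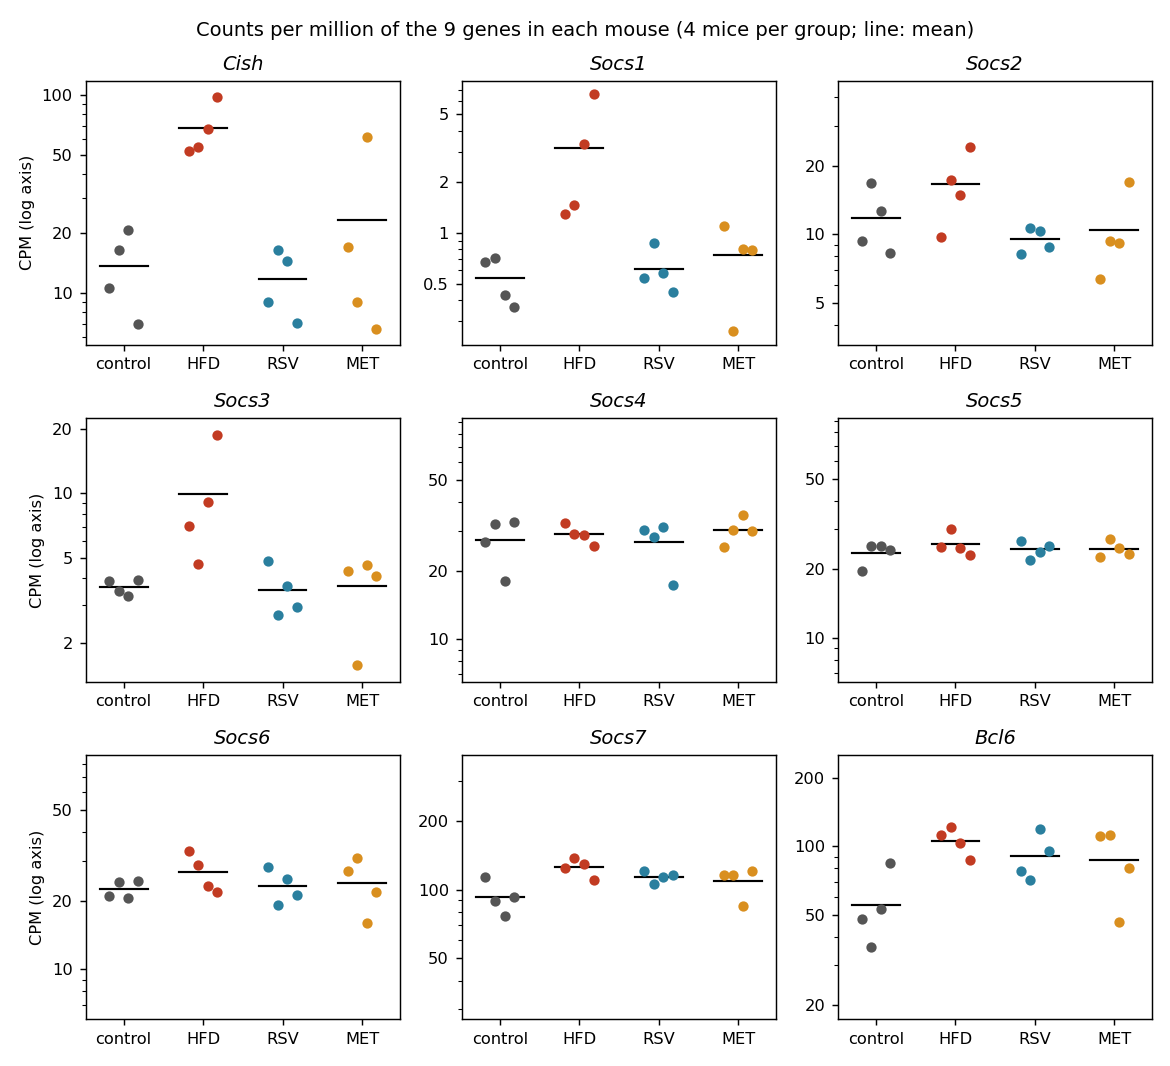
CPM of each of the 9 genes (log axis) in the 4 mice of the control, HFD, HFD + RSV (RSV), and HFD + MET (MET) groups, with the group mean as a line. The HFD mice of Cish and Socs1 lie above all control and all HFD + RSV mice, and Socs4, Socs5, and Socs6 lie at like levels in all groups.

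With the quasi-likelihood test of edgeR and an adjusted P below 0.05 over all genes, 1 of the 9 genes (Socs1) was called as higher in HFD against control, where 1.32% of all tested genes were called as higher. None of the 9 was called in HFD + RSV against HFD, where 0% of all genes passed, or in HFD + MET against HFD, where 0.013% did. At an unadjusted P below 0.05, 725 genes (4.72%) and 1232 genes (8.02%) passed in these 2 comparisons. DESeq2 called 5, 2, and 1 of the 9 in the same 3 comparisons, and 9.92%, 0.0302%, and 0.138% of all genes with an adjusted P. By the criteria of the study, an unadjusted P below 0.05 with an absolute log2FC above 1, 3 of the 9 (Cish, Socs1, and Socs3) were called in each comparison, as higher in the first and lower in the other 2, where 0.911%, 0.195%, and 0.41% of all genes were called in that direction. Groups did not overlap for Cish, Socs1, Socs3, and Bcl6 in HFD against control (8.83% of all genes were higher without overlap), for Cish and Socs1 in HFD + RSV against HFD (2.32% were lower), and for Socs1 and Socs3 in HFD + MET against HFD (1.89% were lower). These counts come from the contrasts on which the genes were chosen, and the 3 comparisons share the HFD mice. The count for HFD against control moved with the mice left out, as did the share of all genes called. It was 5 without HFD + MET mouse 3 (10.2% of all genes), 2 without control mouse 1 (4.95%), HFD + MET mouse 2 (2.12%), or HFD + MET mouse 4 (4.13%), and 2 without both mice that stood apart (3.58%). It was 0 without control mouse 2, 3, or 4 (0.103%, 0.186%, and 0.771%) or HFD mouse 3 or 4 (0.366% and 0.641%).

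**Figure D2:**
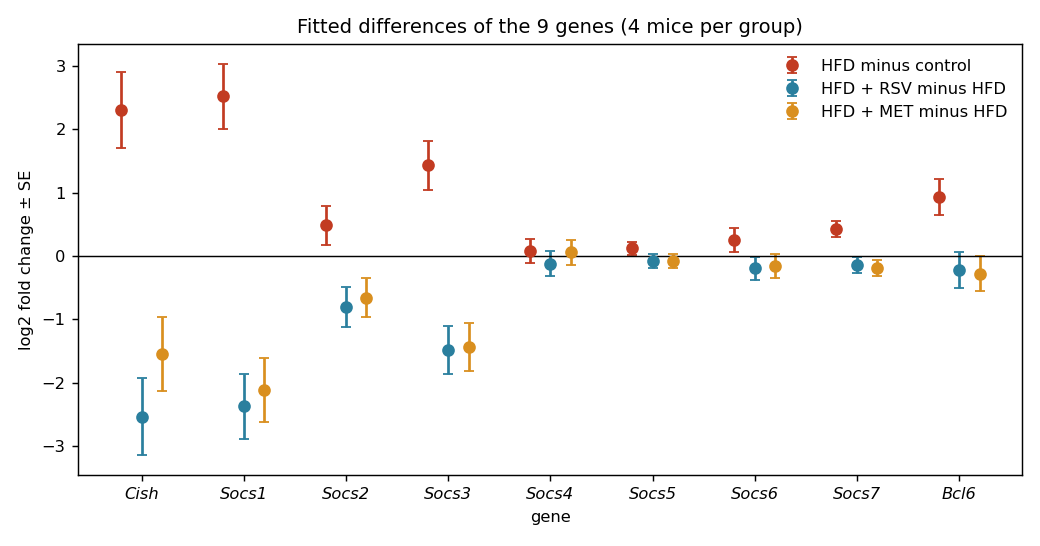
Fitted log2 fold changes with their standard errors for the 9 genes in HFD against control, HFD + RSV against HFD, and HFD + MET against HFD (4 mice per group). Cish, Socs1, and Socs3 have the values farthest from 0, from 1.43 to 2.52 with the diet and from -2.54 to -1.44 in the treated groups, and the HFD mice enter all 3 comparisons.

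The difference in Cish lay mostly in 1 annotated transcript. Of its 4 deposited transcripts, ENSMUST00000085102 and ENSMUST00000168260 encode protein and carried most other counts, the coding fragment ENSMUST00000167072 was counted 4 times in 1 mouse, and ENSMUST00000165664 is annotated as a processed transcript without a coding sequence. The last was counted 38, 180, 47, and 66 times in the control mice and 987, 978, 1268, and 1669 times in the HFD mice. It was counted 17, 81, 176, and 29 times in the HFD + RSV mice and 225, 19, 954, and 16 times in the HFD + MET mice. It made up 74.5% to 83.2% of the Cish counts in the HFD mice, 8.89% to 49.2% in the control mice, 8.42% to 54.1% in the HFD + RSV mice, and 7.92% to 72.6% in the HFD + MET mice.

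The coding transcripts together measured 8.43, 10.7, 18.8, and 3.54 CPM in the control mice and 9.69, 13.9, 11.3, and 21.3 CPM in the HFD mice. They measured 8.27, 12.9, 6.61, and 5.72 CPM in the HFD + RSV mice and 4.67, 8.28, 20.8, and 6.00 CPM in the HFD + MET mice. Unlike the gene total, the coding transcripts of the HFD mice overlapped with those of the control mice and of the HFD + RSV mice, and they also overlapped with those of the HFD + MET mice. When the 2 classes were fitted as separate features, the log2FC for HFD against control was 0.43 ± 0.50 for the coding transcripts and 4.01 ± 1.09 for ENSMUST00000165664. For HFD + RSV against HFD it was -0.75 ± 0.50 and -4.01 ± 1.09, and for HFD + MET against HFD -0.50 ± 0.50 and -2.01 ± 0.98. The classes were chosen after the counts were seen.

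**Figure D3:**
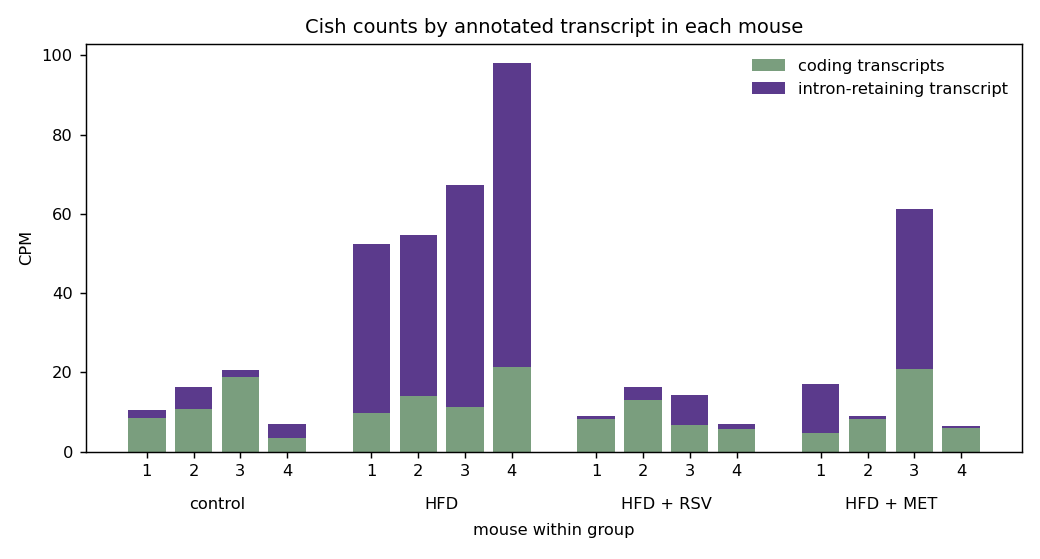
Cish CPM in each of the 16 mice, divided into the coding transcripts (green) and the intron-retaining transcript ENSMUST00000165664 (purple). The purple part is 40.7 to 76.7 CPM in the HFD mice and 40.3 CPM in HFD + MET mouse 3, and at most 12.4 CPM in the other 11 mice.

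ENSMUST00000165664 (4697 bases) differs from the coding transcripts mostly by its first exon, chr9:107296907-107299778, which runs through the end of the first coding exon and covers 2744 of the 2889 bases of intron 1 (94.98%). These intron bases make up 58.4% of the transcript. Its second exon also begins inside intron 1, at position 107299896, where exon 2 of ENSMUST00000085102 begins at 107299924. The coding ENSMUST00000168260 lacks that exon. The coding sequence of ENSMUST00000085102 begins at position 107297015, and exon 1 ends 20 bases later. The first 60 bases from that start codon are shown in both transcripts to mark where they part, with the 20 shared bases in capitals. In the coding transcript the lower-case part is exon 2 (chr9:107299924-107299963), and in the other it is intron 1 (chr9:107297035-107297074).
ENSMUST00000085102: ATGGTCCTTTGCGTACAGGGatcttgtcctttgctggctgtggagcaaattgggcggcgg
ENSMUST00000165664: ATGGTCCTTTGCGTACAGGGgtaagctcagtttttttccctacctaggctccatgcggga

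Read from this start codon, the coding transcript has 257 codons before a stop and the intron-retaining sequence has 7. Reads in the shared exons were divided between the transcripts by the program the authors used, and unspliced Cish RNA cannot be told apart from this transcript in the deposited counts. Over the whole mRNA table, transcripts annotated as retained introns took 2.93% to 3.42% of the mRNA counts in HFD mice and 3.34% to 4.24% in control mice, and processed transcripts took 0.983% to 1.10% and 1.12% to 1.27%, and in neither class did an HFD mouse exceed the highest control mouse. No other gene of the mRNA table overlaps Cish, and neither of the 2 lncRNA rows that overlap it exceeded 20 counts in any mouse.

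**Figure D4:**
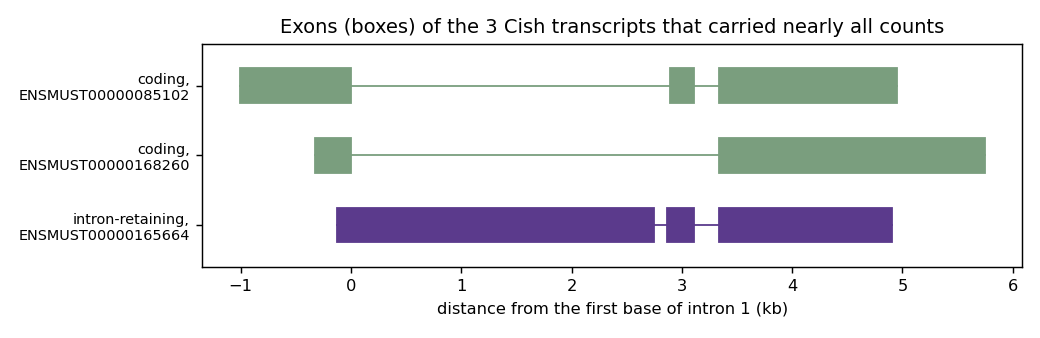
Exons (boxes) and introns (lines) of the 3 Cish transcripts that carried nearly all counts, drawn to scale against the distance in kb from the first base of intron 1. The first exon of ENSMUST00000165664 extends over 2744 bases of that intron, which both coding transcripts lack.

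For the other genes the counts by transcript were also examined. Socs1, Socs3, and Socs5 have 1 deposited transcript each. For Bcl6, the coding transcript ENSMUST00000023151 held 93.4% to 98.9% of the counts in the HFD mice and 85.1% to 93.1% in the control mice, and the retained-intron transcript ENSMUST00000135352 was counted 33 to 162 times in the HFD mice and 59 to 203 times in the control mice. For Socs7, the coding transcript ENSMUST00000045540 held 97.0% to 98.5% of the counts in the 16 mice. Socs2 is spread over 14 transcripts, of which the coding ENSMUST00000020215 held 36.7% to 53.4% in the HFD mice and 23.5% to 56.0% in the control mice. No strand setting is given in the sources used here, and if the libraries were not stranded, reads of a gene and of an antisense RNA over it cannot be told apart.

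The HFD + RSV and HFD + MET groups were also compared with each other. Cish was -0.997 ± 0.585 in HFD + RSV against HFD + MET on the log2 scale, with a 95% interval from -2.14 to 0.15, and HFD + MET mice 1 and 3 lay above the 4 HFD + RSV mice. The other 8 genes had log2FC from -0.26 to 0.06, all groups overlapped, and the widest interval, that of Socs1, ran from -1.30 to 0.78.

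Levels were compared between the genes per length, as FPKM summed over transcripts. In the control group the order was Socs7 (15.5 ± 1.70, SD, n = 4), Bcl6 (14.2 ± 5.49), Socs2 (5.99 ± 1.49), Socs5 (4.95 ± 0.887), Socs6 (4.91 ± 0.259), Cish (4.05 ± 2.27), Socs4 (3.60 ± 0.854), Socs3 (1.303 ± 0.0806), and Socs1 (0.402 ± 0.113). The ranges of neighbours overlapped except between Bcl6 and Socs2, between Socs4 and Socs3, and between Socs3 and Socs1. In the HFD group Bcl6 came first (24.5 ± 2.27 FPKM), followed by Socs7 (17.9 ± 0.505) and Cish (13.7 ± 5.16), which moved from the sixth to the third place, and Socs3 (3.27 ± 2.26) and Socs1 (2.20 ± 1.83) remained last. The HFD range of Cish overlapped with those of Socs7 and Socs2. ENSMUST00000165664, without a coding sequence, held 9.57 ± 3.52 FPKM of Cish in the HFD group and 0.639 ± 0.352 in the control group. The coding ENSMUST00000085102 held 2.48 ± 0.952 and 2.75 ± 1.82 FPKM, and ENSMUST00000168260 held 1.69 ± 0.926 and 0.658 ± 0.594. The HFD + RSV group had Cish at 3.16 ± 1.19 FPKM, in the seventh place, and the HFD + MET group had it at 6.19 ± 6.73 FPKM, in the third place by a mean that rested on mouse 3 (16.2 FPKM, with 2.10 to 3.87 FPKM in the other 3 mice).

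The genes around the family in the pathway were tested as lists that hold none of the 9. These lists were also chosen with earlier results of these data known, so their P-values carry that limit. Of 122 genes in 9 lists, 111 were tested, and in HFD against control 1 rose and 3 fell at an adjusted P below 0.05 (edgeR quasi-likelihood test), where 1.32% of all genes rose and 1.11% fell. The median log2FC of the 111 genes was -0.16 and that of all tested genes -0.02. None of the 111 passed in HFD + RSV against HFD or in HFD + MET against HFD with edgeR or with DESeq2, and 5 and 3 of them met the criteria of the study there, all higher than in the HFD group, as did 0.885% and 1.35% of all genes. Neither the 26 tested cytokine receptors nor the 10 tested Janus kinases and STATs held a gene that passed in any of the 3 comparisons, and their medians for HFD against control were -0.31 and -0.07.

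Among the receptors and signal carriers, Ghr, the growth hormone receptor, measured 206 ± 31.0 CPM in the control group and 241 ± 13.9 CPM in the HFD group (SD, n = 4; log2FC 0.23 ± 0.15, edgeR adjusted P = 0.375). Prlr, the prolactin receptor, was counted 0 to 58 times in the 16 mice and its log2FC of -2.14 ± 1.19 did not pass (edgeR adjusted P = 0.283). Jak2, the kinase bound to both receptors, had a log2FC of 0.13 ± 0.15 (edgeR adjusted P = 0.636). Stat5b was the more abundant STAT5 gene per length in muscle (30.8 ± 5.65 FPKM in the control group, against 9.84 ± 2.22 for Stat5a). Their log2FC for HFD against control was 0.27 ± 0.15 for Stat5b (edgeR adjusted P = 0.298) and -0.37 ± 0.20 for Stat5a (edgeR adjusted P = 0.268). None of these 5 genes passed in either treated group against the HFD group.

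Igf1, the growth factor induced by growth hormone through STAT5, measured 44.9, 37.5, 56.1, and 38.5 CPM in the control mice and 25.6, 26.9, 30.5, and 23.3 CPM in the HFD mice. The HFD mice lay below the control mice without overlap, but the gene did not pass (log2FC -0.74 ± 0.23, edgeR adjusted P = 0.0822, from 0.0246 to 0.235 over 22 other settings, 3 of which called it). It was 0.55 ± 0.23 higher on the log2 scale in HFD + RSV (edgeR adjusted P = 0.9995) and 0.56 ± 0.23 in HFD + MET (edgeR adjusted P = 0.618). None of the 12 tested STAT5 targets outside the family passed, and their median log2FC for HFD against control was -0.13. None of the 9 tested STAT3 and acute response targets passed, and their median was -0.93, with 4 of them lower by the criteria of the study, by which 4.03% of all genes were lower.

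The 4 genes that passed in HFD against control came from 4 lists. Irs1, the docking protein of the insulin receptor, rose from 64.6 ± 8.49 to 112 ± 18.4 CPM (log2FC 0.80 ± 0.17, edgeR adjusted P = 0.0347) and was the only one of 11 tested genes of the insulin receptor list to pass. Cblb, a ubiquitin ligase that damps tyrosine kinase signalling, fell from 87.2 ± 10.1 to 49.3 ± 7.99 CPM (log2FC -0.82 ± 0.13, edgeR adjusted P = 0.0143) as the only one of 13 other brakes on JAK-STAT signalling. Irf4, a transcription factor gene repressed by BCL6 in B cells, fell from 15.7 ± 8.96 to 2.95 ± 0.532 CPM (log2FC -2.42 ± 0.57, edgeR adjusted P = 0.0465) as the only one of 13 tested corepressors and target genes of BCL6. Irf4 is also expressed in adipocytes, and it was highest in control mouse 3 (27.8 CPM) and HFD + MET mouse 3 (15.9 CPM), the mice with the most adipocyte marker RNA. Control mouse 2 and HFD mouse 4, with adipocyte sums of 1082 and 1035 CPM, measured 15.2 and 3.26 CPM of Irf4. The part of adipocytes in the Irf4 difference was not tested. Ddit4, an inhibitor of mTORC1 induced by glucocorticoids and fasting, fell from 106 ± 53.7 to 19.0 ± 6.75 CPM (log2FC -2.48 ± 0.51, edgeR adjusted P = 0.0336) as the only one of 12 genes of the glucocorticoid and fasting list. All 10 partners of the SOCS box in the ubiquitin ligase were tested and none passed, with a median of 0.21. The number that passed also moved with the share of all genes called. It was 0 without control mouse 2 (0.103% of all genes), 1 without control mouse 3 (0.186%) or HFD mouse 1, 2, or 3 (0.199%, 0.237%, and 0.366%), and 2 without control mouse 4 (0.771%) or HFD mouse 4 (0.641%). It was 7 without HFD + MET mouse 4 (4.13%), 19 without HFD + MET mouse 3 (10.2%), and 8 without both mice that stood apart (3.58%).

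**Figure D5:**
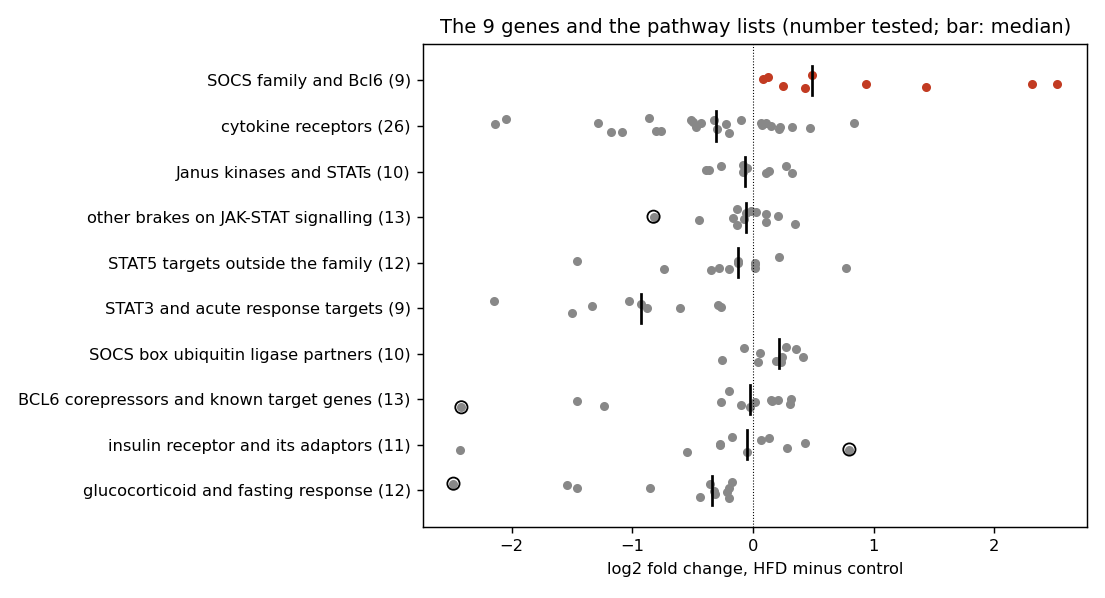
Log2 fold change of HFD against control for the 9 genes (red) and for each tested gene of the 9 pathway lists (grey), with the median of each list as a bar and the genes with an adjusted P below 0.05 circled. The 9 genes were chosen by their group differences, so their place here is a description. All 9 lie above 0, where the 95% intervals of Socs2, Socs4, Socs5, and Socs6 include 0. The list medians lie between -0.93 and 0.21.

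Variation between mice of the same group was not used to choose the genes, so their relations within groups were tested, with log2 CPM centred on the group means. No pair among 36 passed at an adjusted P below 0.05, and 4 pairs had an unadjusted P below 0.05 (two-sided permutation within groups, 16 mice). Cish and Socs7 had the lowest P, with opposite deviations (Pearson r = -0.782, permutation P = 0.00506, adjusted P = 0.159; Spearman rho = -0.706, permutation P = 0.0104, adjusted P = 0.187). Without the 2 mice farthest from the median of Cish, r was -0.627. Socs1 and Socs3 had r = 0.781 (permutation P = 0.021, adjusted P = 0.189) and rho = 0.521 (permutation P = 0.0888, adjusted P = 0.320), and r was 0.534 without HFD mouse 4 and HFD + MET mouse 2. Cish and Socs2, which share STAT5 as an inducer, had r = 0.081 (permutation P = 0.838, adjusted P = 0.910) and rho = 0.265 (permutation P = 0.399, adjusted P = 0.675). Their r was 0.828, 0.806, and 0.882 within control, HFD, and HFD + RSV mice, and -0.483 within HFD + MET mice, each over 4 mice. It was 0.587 without HFD + MET mice 3 and 4 and 0.737 without the HFD + MET group, a setting chosen after seeing the data (permutation adjusted P = 0.153). The other 2 pairs were Socs1 with Socs5 and Socs6 with Bcl6. Socs1 and Socs5 had r = -0.656 (permutation P = 0.00883, adjusted P = 0.159) and rho = -0.706 (permutation P = 0.0062, adjusted P = 0.187), and r was -0.563 without HFD mouse 4 and HFD + MET mouse 2. Socs6 and Bcl6 had r = 0.637 (permutation P = 0.0204, adjusted P = 0.189) and rho = 0.629 (permutation P = 0.0175, adjusted P = 0.189), and r was 0.38 without HFD + MET mice 2 and 3.

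Over the 16 mice without centring, the genes whose log2 CPM was most like that of Cish were Socs1 (r = 0.802), Thbd, Serpinh1, Utp14b, and Gm5844 (r = 0.748). For Socs3 they were Socs1 (r = 0.897), Aagab, Ttyh3, Utp14b, and 2510039O18Rik (r = 0.782). These values hold the group differences by which Cish, Socs1, and Socs3 were chosen, so the place of Socs1 restates that choice. For Bcl6 they were Dysf (r = 0.89), Cby1, Clasp1, Rapsn, and Slc30a4 (r = 0.86), and for Socs2 Ikzf4 (r = 0.808), Arfrp1, Tpbg, Sfi1, and Ddx18 (r = 0.752). After centring on the group means, the genes closest to Cish were Ntrk3 (r = 0.973), Pbld1, Faim, Dapk1, and Pygl (r = 0.941), and those closest to Socs3 were Spata2l (r = 0.894), Pou2f2, Susd3, Aagab, and Donson (r = 0.869). Bcl6 was then closest to Racgap1 (r = 0.918), Gm21451, Dysf, Ccl27a, and 1110002E22Rik (r = 0.831), and Socs2 to Eif4a3 (r = 0.841), AC117769.3, Ttf1, Sfi1, and Sap30bp (r = 0.791). Socs1 was in neither list after centring. Aagab for Socs3, Dysf for Bcl6, and Sfi1 for Socs2 appeared both before and after centring, and the lists of Cish had no gene in common. These values describe the points, which share the same 16 libraries, and each list was picked for its high r. After centring, HFD + MET mice 3 and 4 lay farthest from the median of Cish. Mouse 3 measured 61.1 CPM of Cish, against 6.58 to 17.1 CPM in the other mice of its group. The part of these mice in the lists was not tested.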

How the data were processed

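The deposit holds RNA sequencing of 16 skeletal muscle samples, 4 mice in each of 4 groups. The methods of the study name ribosomal RNA removal and cover every group but HFD + MET, which is known here from the labels alone. The submitters' processing notes name fastp, HISAT2, and GRCm38. The authors counted fragments with StringTie and deposited expected counts, whole numbers without normalization, for each transcript and mouse. FPKM values were also deposited, and each equals the count over the length of the transcript and the total of both tables. In the mRNA table, 4 transcripts split over 2 lines were joined. Gene and lncRNA positions are those deposited, exons and transcript types were read from GENCODE M21, and promoters came from RefSeq. The deposited coordinates were the same as in GENCODE M21 for 0 of 1 transcript of Socs1, 0 of 1 of Socs5, and 6 of 7 of Socs6. For the other members, all transcripts had the same coordinates.

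Counts were summed per gene name and fitted with edgeR 4.0.16 in R 4.3.3 (TMM, robust quasi-likelihood, and filterByExpr with its count limit at 10 and its total limit at 15) with all 16 mice in 1 fit, and Benjamini-Hochberg adjustment covered 15364 genes. DESeq2 1.42.0, other size factors, no filter, 2-group fits, sums per gene ID, and leaving out each mouse were alternatives. CPM are counts scaled to the TMM library size, and log2 CPM used a prior count of 2. Standard errors of log2FC came from the quasi-likelihood F, and 95% intervals are the log2FC ± 1.96 standard errors. Relations used 100000 permutations within groups, and the scripts were tested on simulated data. The spread between mice (common coefficient of variation 0.261) limited the precision, and so did low counts for Socs1 outside the HFD group. Nothing in the sources says whether mice of a group shared a cage.

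The members and lists were chosen with earlier results of these data known. Named genes are the 9 members, Stat5a, Stat5b, Jak2, Ghr, Prlr, and Igf1, up to 3 called genes without overlap per list, direction, and comparison, and the 5 genes most like Cish, Socs2, Socs3, and Bcl6. The division of Cish by transcript type and the tests without both mice that stood apart were chosen after seeing the data.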

Additional observations from a re-analysis of the deposited data

Results flagged for a closer look

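The lncRNA table, which the comparisons above did not use, held an RNA over the gene of Socs2 that was higher in the HFD mice than in the control mice. NONMMUT006953.2 (3847 bases, chr10:95408353-95412199, GRCm38) lies inside the span of Socs2 and measured 5.37, 6.24, 9.50, and 11.6 CPM in the HFD mice (mean 8.18 ± 2.90, SD, n = 4) and 1.35, 3.76, 2.58, and 4.52 CPM in the control mice. It measured 1.83, 1.73, 1.64, and 0.939 CPM in the HFD + RSV mice and 2.58, 1.57, 6.21, and 3.66 CPM in the HFD + MET mice. Every HFD mouse was above every control and every HFD + RSV mouse, while Socs2 itself overlapped between these groups. The study already listed this lncRNA among its top differentially expressed ones, as up in HFD against control and down in HFD + RSV against HFD. It was picked here for this difference, so no test is given, and whether its reads come from Socs2 was not tested.

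In 3 of 36 groups of 4 mice, 1 mouse lay apart from the other 3 in log2 CPM. HFD + MET mouse 2 was low in Socs3, with a gap to the next mouse of 0.882 of the range of its group. HFD + MET mouse 3 was low in Socs7 by the same share, 0.882, and control mouse 1 was low in Socs5, at 0.835. These shares are above the critical value of Dixon's test for 4 mice at 95%, which chance alone passes in about 1 of 20 groups.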

How the results depend on the processing

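No paired analysis was possible because the replicate numbers were given in accession order and do not pair mice across groups. Under 22 other settings the 9 genes kept the direction of their log2FC for HFD against control except Socs4, which was -0.08 without control mouse 3 and HFD + MET mouse 3, and the differences of Cish, Socs1, Socs2, and Socs3 kept their directions in the other 2 comparisons. The Cish difference for HFD + MET against HFD moved to -2.66 without HFD + MET mouse 3, alone or with control mouse 3.

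In HFD against control, 1 of the 9 genes was called, 3 by the criteria of the study, 5 with DESeq2, 2 with only the 2 groups compared, 2 without both mice that stood apart, and 0 to 5 when each mouse was left out. In HFD + RSV against HFD, 0 were called, 3 by the criteria of the study and 2 with DESeq2, and in HFD + MET against HFD, 0, 3, and 1. Of the pathway genes, 4 were called in HFD against control, 12 by the criteria of the study (0 higher and 12 lower), and 21 with DESeq2. The number was 12 with only the 2 groups compared, 8 without both mice that stood apart, and 0 to 19 when each mouse was left out. The criteria of the study called 5 pathway genes as higher in HFD + RSV against HFD (0.885% of all genes). For HFD + MET against HFD the number was 3 (1.35%), and 0 were called by adjusted P in either comparison. Over all genes in HFD against control, DESeq2 called 1543 (9.92% of those with an adjusted P), and edgeR called 203 as higher (1.32%) and 171 as lower (1.11%). The fit with only the 2 groups called 6.74%, and the criteria of the study called 0.911% as higher and 4.03% as lower. Leaving out 1 mouse gave 0.103% to 10.2%, and leaving out both mice that stood apart gave 3.58%. Cblb passed in 21 of the 22 settings (adjusted P from 4.08e-06 to 0.0561), Ddit4 and Irs1 in 15 each (up to 0.0954 and 0.0965), and Irf4 in 10 (up to 0.137). The count of related pairs was 0 to 1 when each mouse was left out. The causes were not tested. Counts of Socs1 outside the HFD group limit its precision.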
